A study of Mus musculus with 13 samples.

Results

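The claustrum is a thin sheet of gray matter between the insular cortex and the striatum, and its excitatory neurons send axons to many cortical areas. Expression was compared here between claustrum neurons that carried a retrograde tracer from the retrosplenial cortex (RSC) and those that carried one from the lateral entorhinal cortex (LEC). Members were all cells with either projection label in the deposited table of cells that had at least 1 count of Snap25, which encodes a protein of the presynaptic fusion machinery, and at least 1 count of Slc17a7, which encodes the vesicular glutamate transporter VGLUT1. These were 533 of the 1011 cells of the series that met both conditions, of 1112 cells harvested. Of the members, 247 were RSC-labeled and 286 were LEC-labeled, whatever type of cell they were.

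All labeled cells came from 3 mature male C57BL/6 mice that had received red fluorescent beads in RSC and green fluorescent beads in LEC. The claustrum was dissected from slices and fluorescent cells were picked by hand into plates, so each label covers only those neurons whose axon endings took up beads and that a picker chose. Mouse 1 gave 64 RSC-labeled and 80 LEC-labeled cells, mouse 2 gave 70 and 76, and mouse 3 gave 113 and 130. The labels lay on separate plates except on 1 plate of mouse 3, here called plate 12 after its label, which held 34 RSC-labeled and 44 LEC-labeled cells, so that plate and label cannot be told apart elsewhere. Raw counts were summed over the cells of 1 mouse and 1 label, and the 3 sums a side were compared with edgeR (quasi-likelihood F test, p-values adjusted by the method of Benjamini and Hochberg), a gene being called at an adjusted p under 0.05. In sums over cells, fewer cells of a type and less RNA per cell cannot be told apart. Levels are in CPM, the counts of a gene in a sum relative to the total of that sum, scaled by edgeR's normalization factors and given for mice 1, 2 and 3 in that order, and log2 fold changes are RSC over LEC with their standard error (SE).

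The claustrum is described as a core of neurons bordered by a shell, and these have been told apart by markers such as Synpr and Nnat. Excitatory neurons of 1 region that send axons to different targets can differ in how they are wired, in how they fire and in what they release, and genes for guidance receptors, ion channels, peptides and their receptors serve these tasks. Neuropeptides act through G protein-coupled receptors (GPCRs), whose signals pass through G proteins to second messengers such as calcium and cyclic AMP.

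The sums held 7058821 to 20871767 counts each, and the median cell held 98573.5 to 203554 counts. The median counts per cell were 151854 ± 52508 for RSC-labeled and 154936 ± 5862 for LEC-labeled cells (SD, n = 3 mice; two-sided exact permutation test, p = 0.90, where 0.10 is the smallest value that 3 against 3 allows). After each cell was thinned to 20000 counts, RSC-labeled cells had 3920.0 ± 36.8 and LEC-labeled cells 3756 ± 76.1 genes per cell, and the share of spike-in counts was 7.33 ± 1.11% and 8.96 ± 0.748% (exact permutation p = 0.10 for both). The plates with only RSC-labeled cells lost 23 of 87, 15 of 85 and 6 of 85 harvested cells of mice 1, 2 and 3 to the Snap25 and Slc17a7 condition, and those with only LEC-labeled cells lost 4 of 84, 11 of 87 and 1 of 87. Pairs of plates shared 0 to 87 of 343 different cell barcodes, and cells were told apart by plate and barcode together. Of the other marker lists, the summed level of 8 astrocyte markers was 188 to 245 CPM in the RSC sums and 102 to 191 CPM in the LEC sums. Most of it in the RSC sums was Slc1a2, a glutamate transporter and the 1 member called, at 205, 187 and 157 CPM. In the LEC sums Slc1a2 was at 97.8, 50.5 and 45.2 CPM. Gfap and Gja1 were at or near 0 in every sum. Aldoc, an aldolase of astrocytes, went the other way, at 84.3, 46.9 and 48.5 CPM in the LEC sums and 33.8, 14.4 and 24.4 CPM in the RSC sums, without overlap but not called (adjusted p = 0.079). For 10 markers of oligodendrocytes and their precursors the RSC sums were at 973, 41.6 and 84.4 CPM and the LEC sums at 403, 209 and 110.4 CPM, with no call, and microglial and endothelial lists stayed under 15 CPM in every sum. Of 14 inhibitory neuron markers, the 12 found by symbol were together at 139.7, 8.22 and 221 CPM in the RSC sums. In the LEC sums they were at 2.31, 0.89 and 1.23 CPM, and Sst, described below, was the 1 call. The part of all these markers in the results was not tested.

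Snap25 was at 4047, 4129 and 5808 CPM in RSC-labeled and 3934, 3026 and 3631 CPM in LEC-labeled cells (adjusted p = 0.2). Slc17a7 was at 132, 205 and 132 CPM and 142, 160.2 and 112 CPM (adjusted p = 0.78). Neither gene of the gate passed the threshold. Of 9 core-like and 8 shell-like markers, all 9 of the first were called higher in RSC-labeled cells and 7 of the second higher in LEC-labeled cells, the remaining one being Ntm. Their values were known when the lists were made, so their calls are a description and support nothing. The lists served for the following check. Each cell was given the class, core-like, shell-like or layer 6-like (10 markers), whose markers had the highest mean z-score in it. The z-scores were of log2(CPM + 1), taken gene by gene over the labeled cells, so a class is relative to those cells. Core-like cells made up 73.4, 81.4 and 91.2% of RSC-labeled cells and 23.8, 14.5 and 11.5% of LEC-labeled cells in mice 1, 2 and 3, without overlap (two-sided exact permutation test, p = 0.10, the smallest possible). Shell-like cells made up 12.5, 10 and 7.08% of RSC-labeled and 72.5, 81.6 and 83.1% of LEC-labeled cells. Layer 6-like cells made up 14.1, 8.57 and 1.77% of RSC-labeled and 3.75, 3.95 and 5.38% of LEC-labeled cells.

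Across 13242 genes tested, 507 were called, 255 higher in RSC-labeled and 252 higher in LEC-labeled cells, which is 3.83% of the genes tested, 1.93% in the first direction and 1.9% in the second. Each of the 507 differed in the same direction in 3 of 3 mice, and for each the 3 sums of one label did not overlap those of the other, a state that 22.5% of all genes tested were in. The median log2 change of the calls was 1.30 in size for genes higher in RSC-labeled and 1.69 for genes higher in LEC-labeled cells, and 63 of the first and 108 of the second differed at least 4-fold. The number of calls rested on having all 3 mice. It was 344 without mouse 1, 46 without mouse 2 and 21 without mouse 3, and each call kept its direction in these fits wherever it had a value.

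Genes were then sorted into 24 classes by symbol, chosen to cover signaling, excitability, wiring and housekeeping. The classes were chosen with earlier results of these data known, so their shares of calls are a description and support nothing. The calls of these classes include 13 of the core-like and shell-like markers, namely Slc17a6, Slc30a3, Gnb4, Rgs12, Col6a1, Spon1, Nr4a2, Ldb2, Gfra1, Synpr, Syn2, Cpne4 and Cpne9. In 22 of the 24 the share of members called lay above the 3.83% of all genes tested, from 5.26% of 38 cyclic nucleotide enzymes to 31.8% of 22 neuropeptides and secretogranins. The exceptions were 85 subunits of oxidative phosphorylation, with 3.53% called, and 78 cytosolic ribosomal proteins, with none called. The 31.8% of the neuropeptide class counts Cbln2, an organizer of synapses that is also counted among the synaptic organizers. It also counts Sst, most of whose counts came from a few cells. With the marker calls left out, 21 classes lay above the 3.71% then found over all genes, since both calls among vesicular transporters and zinc genes were markers. The classes differed in how their calls were split. Of collagens, laminins and other matrix genes, 2 members were higher in RSC-labeled and 9 in LEC-labeled cells, of cell-surface sugar transferases 4 and 10, and of growth factor genes 2 and 7. Of synaptic organizers and immunoglobulin adhesion molecules 8 were higher in RSC-labeled and 2 in LEC-labeled cells, and of neurofilaments, tubulins and axon cytoskeleton genes 7 and 1. Without markers the matrix genes had 2 and 7 and the growth factor genes 1 and 7. Of the 3 copines called, all higher in RSC-labeled cells, Cpne8 was the 1 that is no marker. Differences between classes were not tested.

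**Figure D1:**
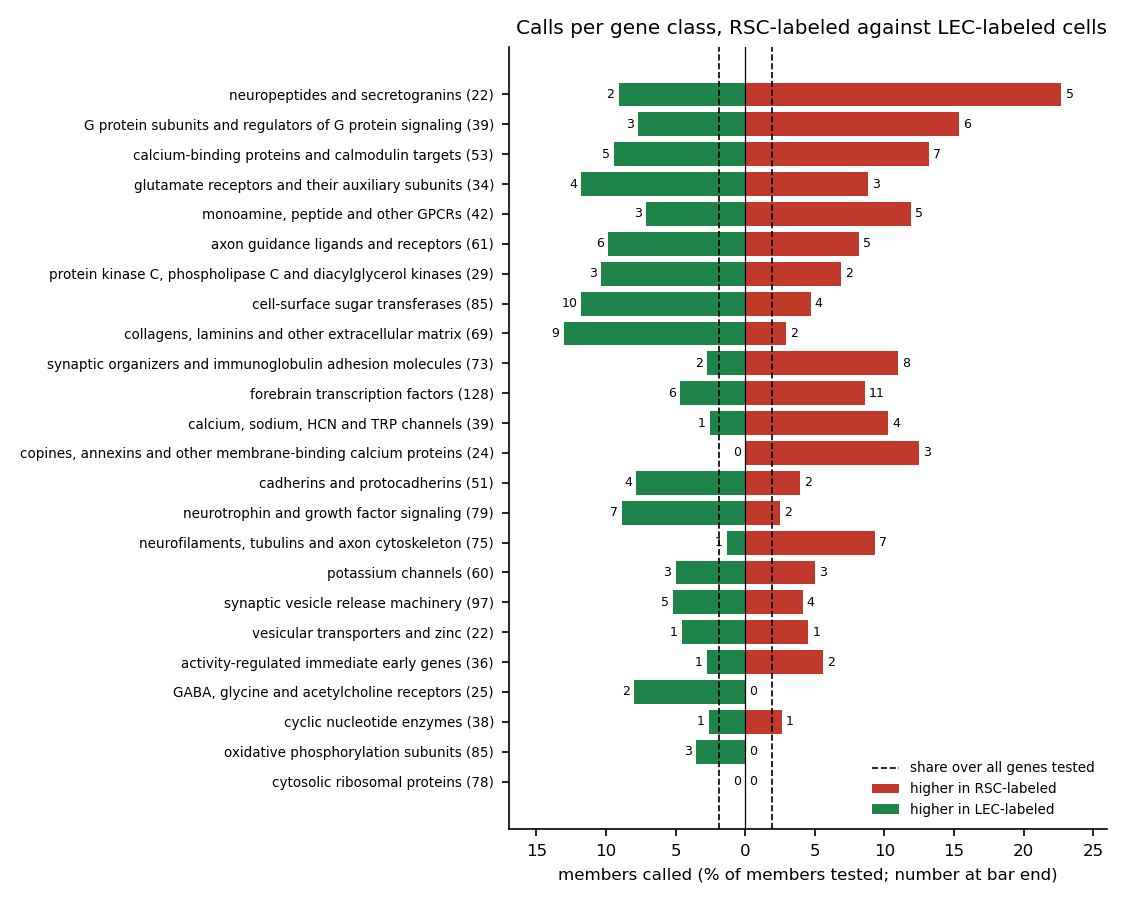
Share of tested members of each gene class (number tested in parentheses) that were called higher in RSC-labeled cells (red, to the right) or in LEC-labeled cells (green, to the left), in percent, with the number of calls at each bar end; dashed lines are the shares over all genes tested, 1.93% and 1.9%. Matrix, sugar transferase and growth factor genes reach further to the LEC side, and synaptic organizer and cytoskeleton genes to the RSC side.

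Neuropeptide and secretogranin genes were called in both directions, 5 higher in RSC-labeled and 2 in LEC-labeled cells, with a median log2 change of 0.16 against 0.00077 over all genes tested. The 5 include Cbln2, which the class holds by its symbol although it is an organizer of synapses, and Sst, described below. Chgb encodes chromogranin B, a protein of dense-core vesicles in which peptides are stored. It was at 2758, 3280.4 and 3141 CPM in RSC-labeled and 1580.1, 1474 and 1711 CPM in LEC-labeled cells, a log2 fold change of 0.95 ± 0.09 (SE; adjusted p = 0.0021). As with every call the sums of the labels did not overlap, and this call held in every alternative fit. Nmb, which encodes the peptide neuromedin B, was at 109, 26.1 and 98.5 CPM against 14.1, 5.83 and 18.7 CPM, a log2 change of 2.59 ± 0.56 (SE; adjusted p = 0.04), and mouse 2 was far below the other mice among the RSC sums. It was held by a minority of the RSC-labeled cells, since 34.4, 8.57 and 24.8% of them had at least 10 counts, against 10, 2.63 and 5.38% of LEC-labeled cells. Cbln2, a secreted organizer of synapses, was at 81.4, 91.04 and 88.6 CPM against 29.7, 30.9 and 29.4 CPM, with narrow spreads on both sides (log2 change 1.53 ± 0.15 SE, adjusted p = 0.0028). Cck was also called higher in RSC-labeled cells, and Adcyap1 and Grp, which encode the peptides PACAP and gastrin-releasing peptide, higher in LEC-labeled cells.

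Sst, which encodes somatostatin, was the call with the greatest fitted change, and most of its counts came from a few cells. It was at 101, 6.78 and 139 CPM in RSC-labeled cells and had 0 counts in all 286 LEC-labeled cells. Of the 4094 counts in RSC-labeled cells, 2691 came from 1 cell of mouse 3 and 1258 from 1 cell of mouse 1. These cells also held counts of Gad1 and Gad2, the enzymes that make the inhibitory transmitter GABA, and each had exactly 1 count of Slc17a7. A further RSC-labeled cell of mouse 3 had 214 counts of Gad2 and 2 of Sst. All 3 of these RSC-labeled cells were classed as layer 6-like. No LEC-labeled cell had a count of Gad1 or Gad2. Without these 3 cells, 143 Sst counts were left in RSC-labeled cells, at most 4 in any cell, and the gene was still called, with a log2 change of 8.99 ± 1.35 (SE; adjusted p = 0.018) that is no bound because the LEC sums were at 0. With counts of 1 to 3 per cell set to 0 it did not pass the filter on low counts and was not tested. Among all harvested cells, Sst counts were found in 42, 35 and 38 cells of the plates of mice 1, 2 and 3 that held only RSC-labeled cells. On the plate of mouse 2 no cell had more than 3. No cell of the other plates had a count, the RSC-labeled cells of plate 12 included, so for these low counts label and plate cannot be told apart.

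The same 3 cells also held most of the RSC counts of Npy, which encodes neuropeptide Y. The gene was not picked by the rule for named genes and was examined after its values were seen. Over all members Npy was at 577, 12.99 and 522 CPM in RSC-labeled and 603, 473 and 1028 CPM in LEC-labeled cells, and it was not called, with a log2 change of -0.91 ± 0.89 (SE; adjusted p = 0.71). Of 17830 counts in RSC-labeled cells, 9627 came from 1 of the 3 cells and 7228 from another. Without the 3 cells, in a fit added after the data were seen, the RSC sums were at 20.2, 12.96 and 26.5 CPM against 603, 472 and 1026 CPM in LEC-labeled cells. The log2 change was then -5.11 ± 0.36 (SE; adjusted p = 8.1e-04, where the alternatives ranged from 5.0e-04 to 0.91), lower in RSC-labeled cells in 3 of 3 mice. Among LEC-labeled cells, 39 of 80, 34 of 76 and 97 of 130 had at least 10 Npy counts in mice 1, 2 and 3. Among RSC-labeled cells the counts were 3 of 64, 0 of 70 and 6 of 113, the 3 cells included. The LEC-labeled cells with Npy were mostly shell-like, as 166 of 228 shell-like but 1 of 45 core-like cells had at least 10 counts (72.8%, exact Clopper-Pearson 95% interval 66.5 to 78.5%, and 2.22%, 0.056 to 11.8%, both for counting error only). Of shell-like cells with the RSC label, 5 of 23 had it (21.7%, 7.46 to 43.7%), and this difference over cells was not tested.

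Nos1, which encodes neuronal nitric oxide synthase and was likewise examined after its values were seen, also depended on these cells. It was at 42.8, 1.73 and 8.61 CPM in RSC-labeled and 15.6, 11.6 and 30.7 CPM in LEC-labeled cells. Without the 3 cells the RSC sums were at 2.18, 1.73 and 0.261 CPM, all below the LEC sums, and the log2 change moved from -0.12 ± 0.86 (SE; adjusted p = 0.97) to -3.85 ± 0.74 (SE; adjusted p = 0.024, alternatives 0.016 to 0.99). At least 10 counts were found in 9, 6 and 21 LEC-labeled cells and in 3, 1 and 1 RSC-labeled cells.

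**Figure D2:**
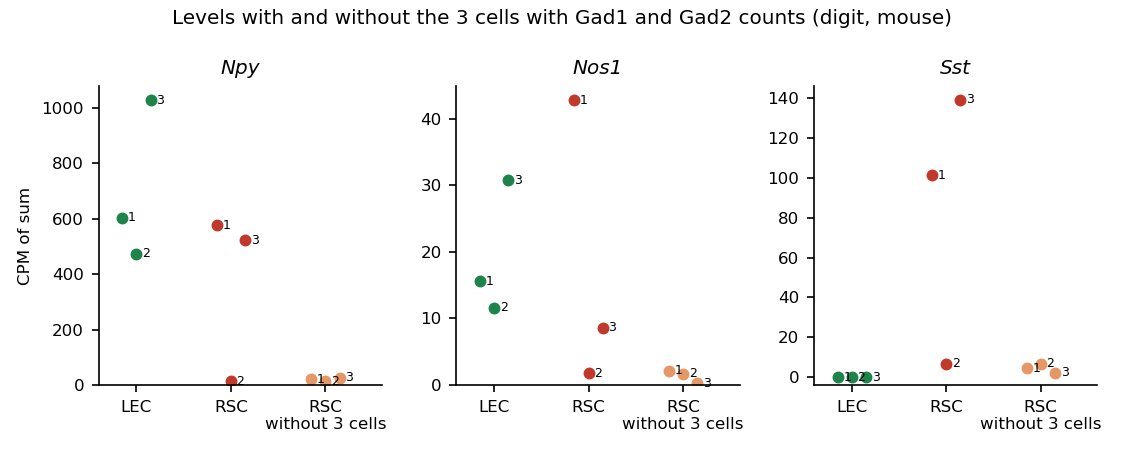
CPM of Npy, Nos1 and Sst in the LEC sums (green), the RSC sums (red) and the RSC sums without 3 cells that held Gad1 and Gad2 counts (orange), with the mouse as a digit beside each point. Without the 3 cells the RSC sums of Npy were 12.96 to 26.5 CPM, and LEC sums were 473 to 1028 CPM.

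Of 42 GPCR genes tested, 5 were higher in RSC-labeled and 3 in LEC-labeled cells, or 19.0% against 3.83% over all genes. Oprk1, the kappa opioid receptor, was at 512, 438 and 410.1 CPM in RSC-labeled and 206, 169.6 and 116 CPM in LEC-labeled cells, a log2 change of 1.47 ± 0.20 (SE; adjusted p = 0.0065). Htr2c, a serotonin receptor, was at 44.8, 64.4 and 43.7 CPM against 20.1, 14.7 and 10.4 CPM (log2 change 1.76 ± 0.29 SE, adjusted p = 0.014). Adra2a and Adra2c, adrenergic receptors, and Sstr2, a somatostatin receptor, were the other calls in this direction. Higher in LEC-labeled cells was Cckbr, a receptor for cholecystokinin, at 175, 127 and 163 CPM against 35.7, 30.9 and 12.5 CPM in RSC-labeled cells (log2 change -2.57 ± 0.35 SE, adjusted p = 0.0071). Cnr1, the main cannabinoid receptor of neurons, was at 48.5, 53.02 and 75.5 CPM against 15.2, 23.1 and 22.5 CPM (log2 change -1.55 ± 0.25 SE, adjusted p = 0.014). The third was Hrh1, a histamine receptor. As for all 507 calls, the RSC and LEC sums of these receptors did not overlap, a state that 22.5% of all genes tested were in. Ramp1, a partner protein that fits a receptor to the peptide CGRP, was at 128, 143 and 126 CPM in LEC-labeled and 27.2, 20.8 and 8.77 CPM in RSC-labeled cells (log2 change -2.82 ± 0.36 SE, adjusted p = 0.0056), and without plate 12 it no longer passed the threshold.

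Downstream of these receptors, 6 of 39 genes for G proteins and their regulators were higher in RSC-labeled and 3 in LEC-labeled cells. The share called was 23.1% against 3.83% over all genes tested. Without the markers Gnb4 and Rgs12 the counts were 4 and 3. Gnao1 encodes the alpha subunit of Go, an abundant G protein of neurons. It was at 1638, 1618 and 1692 CPM in RSC-labeled and 913, 840.4 and 727 CPM in LEC-labeled cells, a log2 change of 0.996 ± 0.09 (SE; adjusted p = 0.0021), and the SD over mice was 38.6 and 93.4 CPM. Rgs2, which shortens the signal of Gq, went the other way at 252, 367 and 396 CPM in LEC-labeled and 129, 170.4 and 155 CPM in RSC-labeled cells (log2 change -1.16 ± 0.18 SE, adjusted p = 0.011). Of genes for phospholipase C, protein kinase C and diacylglycerol kinases, Prkcd was at 95.4, 38.7 and 98.3 CPM against 17.04, 8.58 and 12.5 CPM in LEC-labeled cells (log2 change 2.61 ± 0.39 SE, adjusted p = 0.0099). Its relative Prkca was at 67.2, 87.01 and 78.9 CPM in LEC-labeled and 31.5, 23.2 and 24.5 CPM in RSC-labeled cells (log2 change -1.56 ± 0.19 SE, adjusted p = 0.0056). Plcb1, the phospholipase that Gq turns on, was at 395, 345 and 356 CPM and 201, 209 and 183 CPM in RSC-labeled and LEC-labeled cells (log2 change 0.89 ± 0.10 SE, adjusted p = 0.0045). Dgkg, a kinase that removes diacylglycerol, was higher in LEC-labeled cells (log2 change -1.02 ± 0.19 SE, adjusted p = 0.022), and with the mouse as a block its adjusted p was 0.051. Of 38 cyclic nucleotide enzymes 2 were called, or 5.26% against 3.83% over all genes. These were Prkar1b, a regulatory subunit of protein kinase A, at 2286, 2277 and 2279 CPM in RSC-labeled and 1928, 1781 and 1684 CPM in LEC-labeled cells, and Adcy9, an adenylyl cyclase. Prkar1b did not pass in means over cells. Adcy9 was at 16.7, 24.1 and 17.1 CPM and 47.9, 66.2 and 71.9 CPM (log2 change -1.69 ± 0.24 SE, adjusted p = 0.0079).

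Genes for calcium-binding proteins and targets of calmodulin were called in 12 of 53 cases, or 22.6% against 3.83% over all genes. Necab1, a neuronal calcium-binding protein, was at 69.7, 63.1 and 63.5 CPM in LEC-labeled and 6.94, 7.65 and 10.1 CPM in RSC-labeled cells, a log2 change of -2.98 ± 0.22 (SE; adjusted p = 0.0012) that held in every alternative fit. Its relative Necab2 was also called in this direction. Rcan2, an inhibitor of the phosphatase calcineurin, was at 147, 121 and 145 CPM in RSC-labeled and 39.3, 32.9 and 19.5 CPM in LEC-labeled cells (log2 change 2.17 ± 0.25 SE, adjusted p = 0.0045). Camk2n1, an inhibitor of the kinase CaMKII, was at 842, 686 and 805 CPM against 469, 416 and 369 CPM (log2 change 0.90 ± 0.12 SE, adjusted p = 0.0058). The sums of the labels overlapped for neither gene, as for no call. Hpca, Ncald and Vsnl1, calcium sensors of the visinin family, were higher in RSC-labeled cells, and Hpcal1 and Hpcal4 of the same family higher in LEC-labeled cells.

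Among transmitter receptors, 7 of 34 genes of glutamate receptors and their auxiliary subunits were called, or 20.6% against 3.83% over all genes. The 3 higher in RSC-labeled cells, Gsg1l, Shisa6 and Neto2, all encode auxiliary subunits, and those higher in LEC-labeled cells included the receptor genes Gria3, Grik3 and Grm3. Gsg1l, which binds AMPA receptors, was at 130.4, 106 and 117 CPM in RSC-labeled and 34.4, 18.05 and 15.4 CPM in LEC-labeled cells (log2 change 2.38 ± 0.30 SE, adjusted p = 0.0056). Shisa6, which also binds them, was at 45.2, 36.2 and 37.3 CPM and 16.1, 10.04 and 8.39 CPM (log2 change 1.78 ± 0.29 SE, adjusted p = 0.014), a call that was lost without layer 6-like cells. The 3 cells with Gad1 and Gad2 counts are among the layer 6-like cells, and the call held when only those 3 were left out. Gria3, a subunit of the AMPA receptor itself, was at 225, 216 and 167 CPM in LEC-labeled and 108, 128 and 112 CPM in RSC-labeled cells. Grm3, a metabotropic receptor, was at 64.6, 45.7 and 57.4 CPM and 25.1, 18.5 and 21.3 CPM. Of 25 genes for GABA, glycine and acetylcholine receptors, 2 were called (8%, against 3.83% over all genes), both higher in LEC-labeled cells. Gabra5 encodes the alpha 5 subunit of GABA-A receptors that lie mostly outside synapses, and it was at 91.99, 124 and 87.4 CPM in LEC-labeled and 17.96, 13.7 and 15.7 CPM in RSC-labeled cells, a log2 change of -2.67 ± 0.21 (SE; adjusted p = 0.0012) that held in every alternative fit. On plate 12 the difference was smaller, at 65.5 and 29.5 CPM. Gabrb1 was close to the threshold, with -0.67 ± 0.15 (SE; adjusted p = 0.047) on the log2 scale. With the mouse as a block its adjusted p was 0.085, and it was not called without plate 12 or without layer 6-like cells. Its call held when only the 3 cells with Gad1 and Gad2 counts were left out.

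Voltage-gated channels were called in both directions. Kcnc1 and Kcnc4 both encode Kv3 potassium channels, which let neurons fire fast. Kcnc1 was at 208, 171 and 191 CPM in RSC-labeled and 108, 78.3 and 73.6 CPM in LEC-labeled cells (log2 change 1.13 ± 0.17 SE, adjusted p = 0.0099). By contrast, Kcnc4 was at 22.7, 26.8 and 17.6 CPM in RSC-labeled and 78.1, 79.7 and 91.3 CPM in LEC-labeled cells (log2 change -1.90 ± 0.20 SE, adjusted p = 0.0035). The pair was thus called in opposite directions, each gene with the same direction in 3 of 3 mice, as all calls had. Kcnh7, of the ERG channels, was higher in RSC-labeled cells at 96.4, 66.9 and 91.8 CPM against 41.4, 33.4 and 36.8 CPM. Kcnf1, a silent subunit that joins other channels, was higher in LEC-labeled cells at 128, 75.8 and 86.6 CPM against 29.4, 39.5 and 29.1 CPM. Kcnv1 and Kcnk3 were the other calls, the first higher in RSC-labeled cells. Of 39 genes for calcium, sodium, HCN and TRP channels, Trpc5 was at 37.2, 37.7 and 46.4 CPM in RSC-labeled and 13.2, 14.97 and 18.97 CPM in LEC-labeled cells (log2 change 1.36 ± 0.23 SE, adjusted p = 0.016). Its relative Trpc6 was called in the same direction. Cacna1a, the pore subunit of P/Q-type calcium channels, was the 1 call of that class in the other direction, at 51.1, 41.5 and 50.1 CPM in LEC-labeled and 13.03, 19.3 and 11.4 CPM in RSC-labeled cells (log2 change -1.72 ± 0.26 SE, adjusted p = 0.0099).

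**Figure D3:**
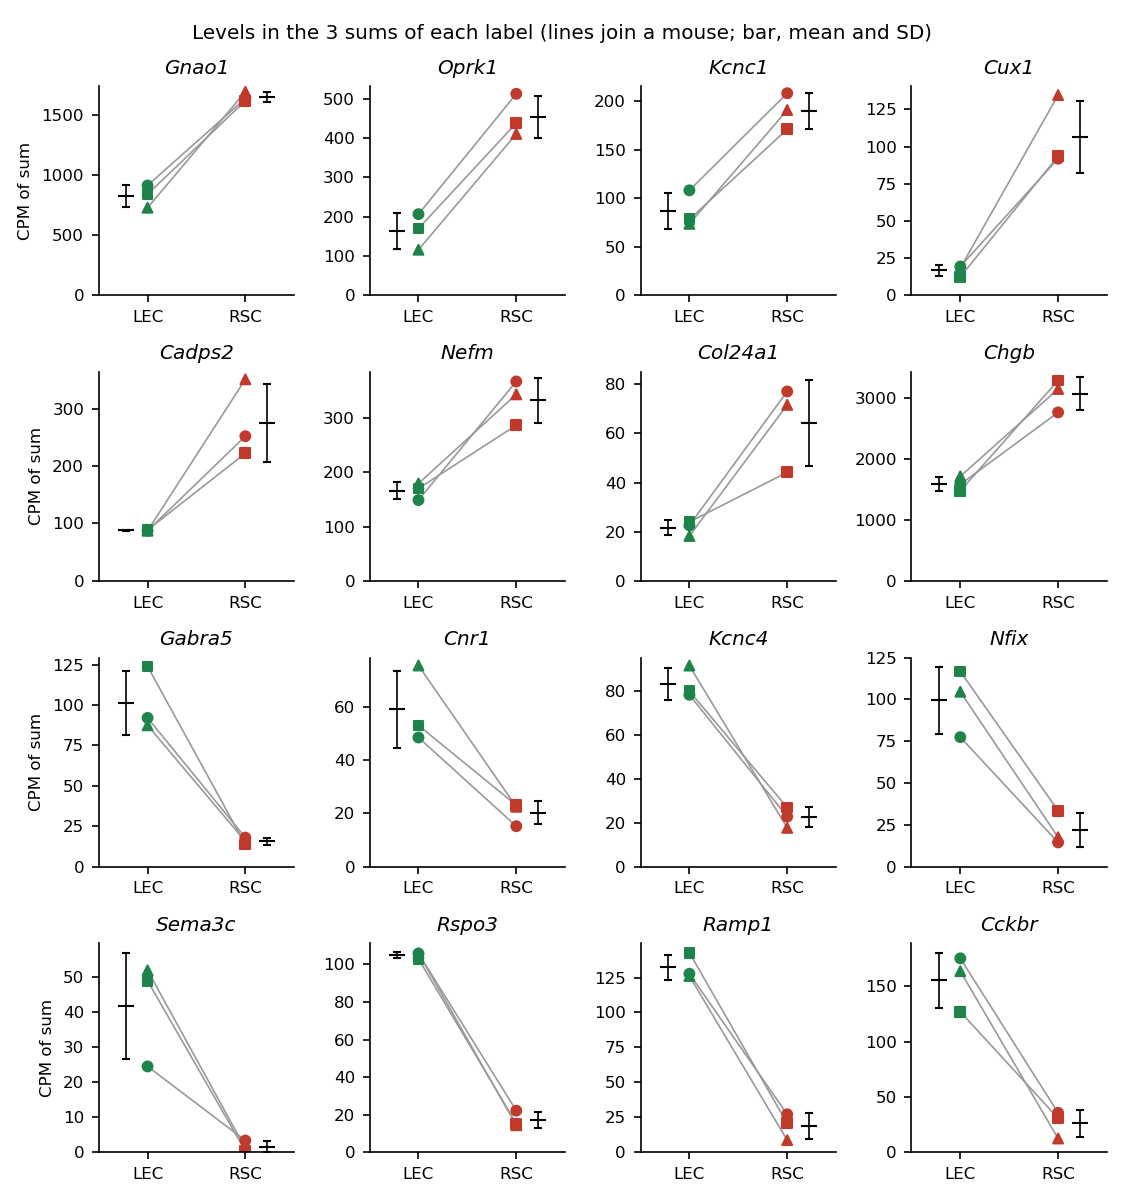
CPM in the 3 LEC sums (green) and the 3 RSC sums (red) of 16 named genes, on linear axes from 0; circles, squares and triangles are mice 1, 2 and 3, gray lines join the sums of a mouse, and black bars show mean and SD (n = 3). In each panel the sums of one label lie entirely above those of the other, as they do for every called gene.

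Genes that guide axons were called in 11 of 61 cases, 5 higher in RSC-labeled and 6 in LEC-labeled cells. Sema3c encodes a secreted semaphorin and was at 24.5, 48.9 and 51.9 CPM in LEC-labeled and 3.39, 0.433 and 1.17 CPM in RSC-labeled cells, a log2 change of -4.58 ± 0.61 (SE; adjusted p = 0.0065). Nrp1 and Nrp2, receptors for secreted semaphorins, were called in the same direction, so a ligand and its receptor class were both higher in LEC-labeled cells. Efnb3, an ephrin ligand, was at 81.5, 93.2 and 112 CPM against 23.2, 7.65 and 12.7 CPM in RSC-labeled cells (log2 change -2.70 ± 0.36 SE, adjusted p = 0.0065). On the RSC side, Unc5d, a netrin receptor, was at 80.2, 72.1 and 69.2 CPM against 38.1, 17.4 and 25.5 CPM (log2 change 1.45 ± 0.27 SE, adjusted p = 0.023). Sema4f, a semaphorin of the cell membrane, was at 93.2, 81.5 and 102 CPM against 50.4, 47.2 and 40.5 CPM (log2 change 1.01 ± 0.16 SE, adjusted p = 0.013). Sema5a and Epha4, an ephrin receptor, were also higher in RSC-labeled cells, and Unc5a, of the same netrin receptor family as Unc5d, in LEC-labeled cells.

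Adhesion genes were called in both directions. Of cadherins and protocadherins, Cdh8 was at 117, 155 and 149 CPM in RSC-labeled and 52.7, 39.8 and 43.7 CPM in LEC-labeled cells (log2 change 1.63 ± 0.17 SE, adjusted p = 0.0035). Cdh13, anchored to the membrane by a lipid, was at 529.8, 581 and 630.5 CPM in LEC-labeled and 423, 434 and 406 CPM in RSC-labeled cells, a small but called difference (log2 change -0.46 ± 0.09 SE, adjusted p = 0.028). Clstn2 was close to the threshold (log2 change -0.97 ± 0.22 SE, adjusted p = 0.049), and its adjusted p was 0.10 with the mouse as a block. Among synaptic organizers and immunoglobulin adhesion molecules, Cadm2, Cadm3, Slitrk1, Nfasc and Lingo1 were called higher in RSC-labeled cells. Nptx1, a pentraxin that gathers AMPA receptors, was at 372, 366 and 443 CPM in LEC-labeled and 225, 213 and 178 CPM in RSC-labeled cells (log2 change -0.94 ± 0.13 SE, adjusted p = 0.0065).

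Matrix genes had a median log2 change of -0.27 over 69 tested, against 0.00077 over all genes. The share called was 15.9% against 3.83% over all genes. The 9 calls on the LEC side included the proteases Adamts13, Adamts14, Adamts15 and Adamts18 and the collagens Col5a2 and Col6a1. Of these, Adamts14 had 107 counts in 18 LEC-labeled cells and Adamts15 had 111 counts in 8, against 1 and 0 counts in RSC-labeled cells. Col6a1, which is also one of the shell-like markers, was at 199, 342 and 301 CPM in LEC-labeled and 38.4, 56.99 and 20.03 CPM in RSC-labeled cells. The 2 calls on the RSC side were also collagens, of the fibrillar kind. Col11a1 was at 192, 166 and 177 CPM against 68.2, 37.1 and 30.9 CPM in LEC-labeled cells (log2 change 1.97 ± 0.27 SE, adjusted p = 0.0075), and without plate 12 it did not pass the threshold. Col24a1 was at 77.02, 44.2 and 71.6 CPM against 22.6, 23.96 and 18.3 CPM (log2 change 1.58 ± 0.25 SE, adjusted p = 0.012). Its promoter is printed here because it alone, among the named genes with a promoter at hand, held the letters bound by the nuclear receptor Nr4a2, which was itself higher in RSC-labeled cells (log2 change 1.58 ± 0.15 SE, adjusted p = 0.0023). The sequence runs from 250 bases before to 50 bases after the start site, from RefSeq in GRCm38.p6, at chr3:145292222-145292521 on the plus strand, with the searched letters AAAGGTCA in capitals.
Col24a1: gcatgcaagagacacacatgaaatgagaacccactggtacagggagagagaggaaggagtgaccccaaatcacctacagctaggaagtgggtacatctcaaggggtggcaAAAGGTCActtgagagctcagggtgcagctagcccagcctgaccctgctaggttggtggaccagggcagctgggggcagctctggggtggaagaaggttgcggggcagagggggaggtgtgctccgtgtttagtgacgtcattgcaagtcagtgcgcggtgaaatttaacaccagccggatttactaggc
Searched on both strands, these letters stood in 2 of 189 promoters of genes higher in RSC-labeled cells (1.06%), in 2 of 180 of genes higher in LEC-labeled cells (1.11%) and in 79 of 9848 of all genes tested (0.802%), and no other motif was searched. Over all 32851 promoters of this length the share was 1.51%. A match describes the letters only.

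Genes that build sugar chains of the cell surface were called in 14 of 85 cases (16.5%, against 3.83% over all genes), 10 of them higher in LEC-labeled cells. Ext1, which lengthens heparan sulfate chains, was at 46.4, 89.3 and 51.6 CPM in LEC-labeled and 12.3, 8.37 and 10.2 CPM in RSC-labeled cells (log2 change -2.59 ± 0.30 SE, adjusted p = 0.0045). Galnt9, which starts mucin-type chains, was at 90.2, 137 and 103 CPM against 23.1, 25.4 and 16.1 CPM (log2 change -2.37 ± 0.24 SE, adjusted p = 0.0028). St6galnac5, which adds sialic acid to gangliosides, was at 159, 117 and 125 CPM against 42.5, 42.4 and 33.99 CPM (log2 change -1.76 ± 0.18 SE, adjusted p = 0.0029). The RSC side held Mgat4c and Mgat5b, both of enzyme families that branch sugar chains, and the sulfotransferases Chst1 and Chst2. Mgat4c was at 86.04, 135 and 91.2 CPM in RSC-labeled and 31.6, 37.7 and 21.7 CPM in LEC-labeled cells. Mgat5b was at 42.2, 61.6 and 75.3 CPM and 20.8, 19.2 and 23.6 CPM. Mgat4c did not pass the threshold without plate 12.

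Of 79 growth factor genes tested, 7 were called higher in LEC-labeled and 2 in RSC-labeled cells, the latter including the marker Gfra1. The share called was 11.4% against 3.83% over all genes tested, and 70 did not pass. The median log2 change of the class was -0.10. Rspo3, which boosts Wnt signals, was at 106, 103 and 106 CPM in LEC-labeled and 22.2, 15.3 and 14.4 CPM in RSC-labeled cells (log2 change -2.60 ± 0.21 SE, adjusted p = 0.0012), with all LEC sums within a few CPM of each other. Its relative Rspo2 was also called, as were Inhba, an activin subunit, Bmp3 and Btc, a ligand of the EGF receptor family. Btc had 282 counts in 12 LEC-labeled cells and 0 in RSC-labeled cells. Cxcl12, a chemokine, was at 59.2, 98.4 and 107 CPM against 18.6, 8.37 and 4.99 CPM (log2 change -3.05 ± 0.46 SE, adjusted p = 0.01). Nov, a matricellular protein now named Ccn3, was at 71.8, 107 and 87.4 CPM against 21.4, 13.6 and 16.9 CPM (log2 change -2.35 ± 0.24 SE, adjusted p = 0.0028). Wnt10a, a Wnt ligand, was the counterpart in RSC-labeled cells, at 82.3, 73.2 and 89.4 CPM against 34.8, 39.5 and 48.6 CPM (log2 change 0.99 ± 0.18 SE, adjusted p = 0.021).

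Among forebrain transcription factors 11 of 128 were higher in RSC-labeled and 6 in LEC-labeled cells, or 13.3% against 3.83% over all genes. Without the markers Nr4a2 and Ldb2 the counts were 10 and 5. Cux1, a homeodomain factor known from upper cortical layers, was at 91.8, 93.5 and 135 CPM in RSC-labeled and 19.3, 12.3 and 18.3 CPM in LEC-labeled cells (log2 change 2.68 ± 0.24 SE, adjusted p = 0.0021). Satb1, Tbr1, Tcf4, Nr2f2 and Id2 were called in the same direction. Nfix was at 77.5, 117 and 105 CPM in LEC-labeled and 14.5, 33.5 and 17.6 CPM in RSC-labeled cells (log2 change -2.21 ± 0.32 SE, adjusted p = 0.0089). Nfib of the same nuclear factor I family was called too, as were Thra and Thrb, which encode both thyroid hormone receptors. Of 36 immediate early genes, which neurons switch on when active, Jun was higher in LEC-labeled cells at 138, 234 and 345 CPM against 76.6, 84.5 and 62.8 CPM (log2 change -1.68 ± 0.29 SE, adjusted p = 0.017). Homer1 and the core-like marker Nr4a2 were higher in RSC-labeled cells. Homer1 was at 112, 132 and 162 CPM against 56.7, 41.04 and 75.3 CPM (log2 change 1.23 ± 0.23 SE, adjusted p = 0.024). The remaining 33 did not pass. The share called was 8.33% against 3.83% over all genes. With the marker calls left out it was 5.71% against 3.71%.

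Genes for vesicle release were called in 9 of 97 cases, or 9.28% against 3.83% over all genes, the markers Synpr and Syn2 included. Cadps2, which prepares dense-core vesicles for release, was at 252, 222 and 351 CPM in RSC-labeled and 87.3, 88.7 and 87.3 CPM in LEC-labeled cells, a log2 change of 1.65 ± 0.17 (SE; adjusted p = 0.0031) that held in every alternative fit. Syt13, a synaptotagmin, was at 184, 217 and 209 CPM in LEC-labeled and 115, 141 and 110.1 CPM in RSC-labeled cells (log2 change -0.74 ± 0.14 SE, adjusted p = 0.023). Of the 22 vesicular transporters and zinc genes, Slc17a6, the glutamate transporter VGLUT2, was higher in RSC-labeled cells, and the vesicular zinc transporter Slc30a3 in LEC-labeled cells, both of them markers of the class lists. Cytoskeleton genes were higher mostly in RSC-labeled cells. Nefm, a neurofilament, was at 367, 287 and 343 CPM against 149, 170.1 and 179 CPM (log2 change 1.001 ± 0.13 SE, adjusted p = 0.0056). Tubb5, a tubulin, was at 1788, 1743 and 1909 CPM against 1303, 1312 and 1257 CPM (log2 change 0.49 ± 0.07 SE, adjusted p = 0.0066). Nefl, Kif5a, Kif5c, Stmn2 and Tuba8 were called likewise. Dync1i1, a part of the dynein motor, was the 1 call in the other direction, at 238, 223 and 225 CPM in LEC-labeled and 139.8, 113 and 136 CPM in RSC-labeled cells. The median log2 change of the class was 0.058, and 67 of its 75 members did not pass. The share called was 10.7% against 3.83% over all genes.

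Housekeeping genes differed little. The 85 subunits of oxidative phosphorylation had a median log2 change of -0.19 and the 78 cytosolic ribosomal proteins one of -0.17, both below the 0.00077 of all genes. The 3 calls among the former, Cox5b, Ndufa3 and Ndufb10, were higher in LEC-labeled cells, with Cox5b at 464, 495 and 505 CPM against 361, 368 and 371 CPM (log2 change -0.41 ± 0.08 SE, adjusted p = 0.03). For Ndufb10 the log2 change was -0.37 ± 0.08 (SE; adjusted p = 0.043), and with the mouse as a block the adjusted p was 0.054. The ribosomal gene with the smallest p, Rps26, was at 63.2, 78.8 and 82.2 CPM in LEC-labeled and 43.7, 55.1 and 57.8 CPM in RSC-labeled cells and did not pass (adjusted p = 0.18).

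Several of the greatest changes lay outside these classes. Lgals1, a sugar-binding galectin, was at 90.5, 74.5 and 54.7 CPM in RSC-labeled and 14.2, 9.07 and 1.85 CPM in LEC-labeled cells (log2 change 3.14 ± 0.59 SE, adjusted p = 0.023). Car3, a carbonic anhydrase, was at 60.6, 40.8 and 66.9 CPM against 13.6, 2.02 and 8.54 CPM (log2 change 2.79 ± 0.55 SE, adjusted p = 0.027). Coch, a secreted protein known from the inner ear, was at 93.4, 92.1 and 86.02 CPM against 18.5, 16.1 and 15.8 CPM (log2 change 2.43 ± 0.17 SE, adjusted p = 0.0011). Lgals1 was again a gene of some cells, as 25, 12.9 and 16.8% of RSC-labeled cells had at least 10 counts, and it did not pass the threshold without plate 12. Coch differed less on plate 12, where the RSC-labeled cells were at 52.7 and the LEC-labeled cells at 34.9 CPM, and it was not called in sums per plate with the mouse as a block. Cd302, a membrane lectin, was at 72.5, 56.1 and 110.1 CPM against 20.2, 4.86 and 16.5 CPM. The long noncoding RNA 2610017I09Rik, now named Pantr1, was at 133, 123 and 134 CPM against 42.02, 17.3 and 16.5 CPM (log2 change 2.36 ± 0.34 SE, adjusted p = 0.0091). 6330527O06Rik, now named Lamp5, was at 92.3, 52.5 and 112 CPM against 20.2, 26.7 and 7.87 CPM. For Lamp5 the adjusted p was 0.027, and 0.072 with the mouse as a block. Lamp5 is also on the list of inhibitory neuron markers, whose sums do not count it because of its older symbol. All its 3755 counts in RSC-labeled cells were left without the 3 cells with Gad1 and Gad2 counts. On the LEC side Blnk, an adaptor of B cell signaling, was at 74.5, 103 and 158 CPM against 9.17, 8.51 and 10.8 CPM in RSC-labeled cells (log2 change -3.54 ± 0.30 SE, adjusted p = 0.0016), and this held in every alternative fit. Ccdc3, a secreted protein, was at 35.3, 46.5 and 76.9 CPM against 6.55, 6.204 and 7.39 CPM. Fam163b was at 151, 166 and 182 CPM against 28.3, 46.03 and 10.2 CPM. Krt9, a keratin, was at 25.5, 75.2 and 51.9 CPM against 1.39, 4.33 and 7.24 CPM.

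A further set of calls had 3 counts or fewer in all cells of the lower label, Sst among them. There were 39 of them, 23 higher in LEC-labeled and 16 in RSC-labeled cells, and most were held by few cells. Some are also counted in the classes above, Adamts14, Adamts15, Btc, B3gnt5 and Chst9 among them. The following were chosen after their values were seen. Igfn1, of an immunoglobulin and fibronectin domain protein, had 75, 225 and 491 counts in 35 LEC-labeled cells and 0 in RSC-labeled cells, at least 222-fold higher against a floor of 3 counts over the group. B3gnt5, which starts lacto-series glycolipids, had 494 counts in 40 LEC-labeled cells and 1 count in RSC-labeled cells. Chst9, a sulfotransferase, had 34, 103 and 287 counts in 33 LEC-labeled cells and 0 in RSC-labeled cells, at least 119-fold higher. In the other direction, Lhfpl1 had 41, 59 and 182 counts in 14 RSC-labeled cells and 2 in LEC-labeled cells. Agtr1a, an angiotensin receptor, had 28, 9 and 74 counts in 11 cells against 0. Pou3f4, a transcription factor, had 60, 7 and 63 counts in 6 cells against 0. For Pou3f4 1 cell gave 46.2% of all counts.

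On plate 12, where both labels were processed together, 489 of the 507 called genes differed in the same direction as over all cells, 10 in the opposite direction. The remaining 8 were equal at log2(CPM + 1). The same direction was seen for 68.0% of all genes tested, but these cells are part of the sums of mouse 3, so the shares are not independent of the calls. The median difference in the called direction was 1.23 on plate 12 and 1.47 over all cells on the log2 scale. Without plate 12, 364 genes were called, and 348 of the 507 were among them.

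Labels were also compared within classes of cells, which rest on the core-like and shell-like markers, so the markers themselves are not read here. Within core-like cells, 207 RSC-labeled and 45 LEC-labeled, 0 of 12322 genes were called (0%) in edgeR's quasi-likelihood test, with 453 at an unadjusted p under 0.05. Within shell-like cells, 23 RSC-labeled and 228 LEC-labeled, 42 were called, which is 0.341%, of which 18 were higher in RSC-labeled and 24 in LEC-labeled cells. With 7 or 8 RSC-labeled shell-like cells a mouse, and 11 to 19 LEC-labeled core-like cells, these sums were thin. Of the 474 genes called over all cells that could be tested within classes, 360 had the same sign within core-like and 410 within shell-like cells. Their median change in the called direction was 0.27 and 0.69 on the log2 scale, against 1.39 over all cells. The cells of both classes are part of the sums that gave the calls, so these values are not independent of the calls. The share of all genes with the same sign was not taken. Gabra5, for example, had log2 changes of 0.23 within core-like and -1.09 within shell-like cells, and Kcnc1 of 0.21 and 0.20. Cdh8 was called within shell-like cells, at 1.75 (adjusted p = 0.021), and had 0.013 within core-like cells. Col11a1 (3.72, adjusted p = 0.0499) and 2610017I09Rik (3.71, adjusted p = 0.0052) were called within shell-like cells as well.

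**Figure D4:**
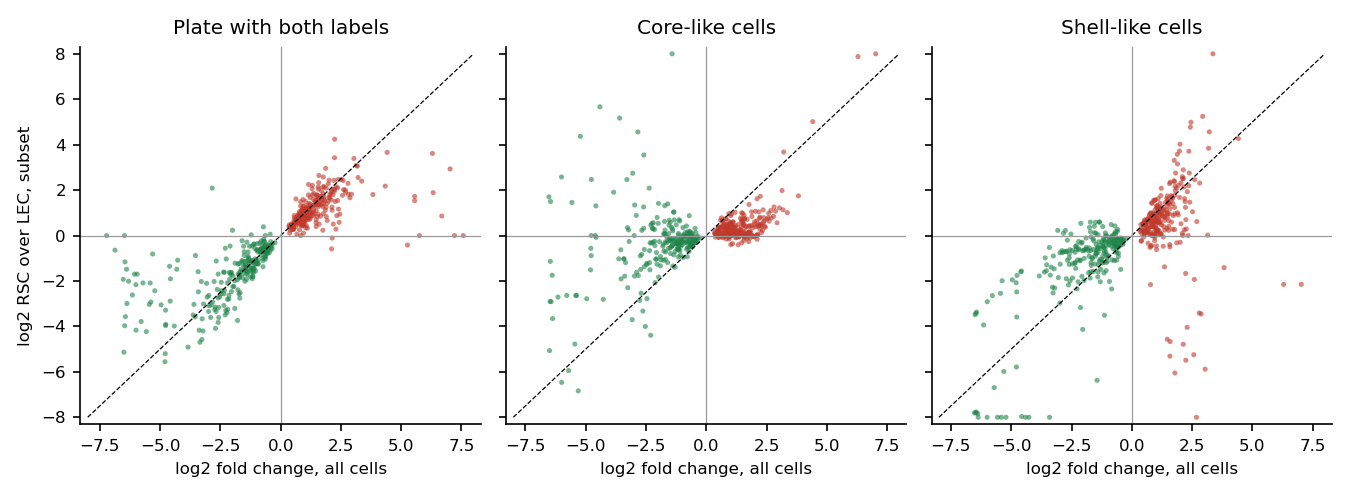
Log2 RSC over LEC of the called genes on plate 12 (left), within core-like cells (middle) and within shell-like cells (right), against the log2 fold change over all cells; red and green are genes higher in RSC-labeled and LEC-labeled cells, and the dashed line marks equal values. Axes end at 8. Of the genes, 18 beyond that over all cells are left out and 12 values are drawn at the edge. Points follow the line on plate 12 and lie flatter within the classes, with median changes of 1.23, 0.27 and 0.69 in the called direction. Each subset is part of the cells that gave the calls.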

How the data were processed

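Single cells of the mouse claustrum were picked by hand and sequenced on plates. Per the authors' methods, reads were trimmed of adapters, assigned to cell barcodes and molecular identifiers, aligned with STAR and counted per gene, and the submitters' processing notes name the genome build NCBIM37 and Seurat. The deposited values are raw counts per gene and cell. The annotation and any use of strand are not given in the sources used here. The labels and mice of cells came from the deposited table of cells, and plates from the sample titles.

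Spike-in rows were set aside, cells lacking Snap25 or Slc17a7 counts were dropped, and counts were summed per mouse and label. Genes passing edgeR's filterByExpr were normalized by TMM and tested with edgeR 4.0.16 (R 4.3.3, quasi-likelihood F test, Benjamini-Hochberg adjustment) over the 6 sums, without a term for the mouse. Since both sums of a pair came from 1 animal, a fit with the mouse as a block was an alternative. The deviations of paired sums from their label means correlated at 0.078, 0.059 and 0.047 across genes, and those of unpaired sums at -0.10 to 0.047. Other fits used DESeq2 1.42.0, other size factors, no filter, thinned cells, other gates and sums per plate. Another used limma 3.58.1 on log2 of the mean CPM of cells plus 1. Each mouse, plate 12, layer 6-like cells, cells with 10 counts of Gad1 or Gad2, and counts of 1 to 3 per cell were left out in turn. The last 2 were chosen after the data were seen. Exact permutation tests were run in scipy 1.17.1. Cells are not replicates, and p-values cover the spread between these 3 mice.

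The compared labels, gene classes and marker lists were chosen with earlier results of these data known. Named were, among genes called, in the same direction in 3 mice, at a mean of at least 20 CPM and with counts in at least 20% of cells of the higher label in each mouse, the 12 greatest changes in each direction outside the marker lists and up to 2 members of each class and direction with the smallest p, the member with the smallest p of a class without calls, and 9 genes as checks. Of the 95 such genes found in GENCODE vM21, Npy and Nos1 included, 28 share exonic bases with another gene and are uncertain where reads of both were counted, 9 of them with a protein-coding gene (Gabrb1, Kcnh7, Lxn, Nefm, Nfix, Nmb, Prkca, St6galnac5 and Syn2). Promoters were matched by symbol or by a RefSeq synonym that only 1 gene carries. Cells without a projection label and the mouse sampled without labels were not analysed here. The values of some named genes are not reported here.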

Additional observations from a re-analysis of the deposited data

Results flagged for a closer look

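Across 12342 genes the label difference within core-like cells was compared with that within shell-like cells in 1 edgeR fit (1131 genes at an unadjusted p under 0.05), and 2 genes passed an adjusted p of 0.05. One of them, Gfra1, is a marker by which cells were classed, so its difference between the classes is not read. For Rnmtl1, an RNA methyltransferase of mitochondria, the difference was 11.87 ± 1.47 (SE; adjusted p = 0.030), a fitted value that is no bound, since the 23 shell-like cells with the RSC label had no count of it. The other means were 43.7 CPM in shell-like cells with the LEC label, and 38.3 and 24.9 CPM in core-like cells with the RSC and the LEC label. Whether the small number of shell-like cells with the RSC label plays a part was not tested.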

How the results depend on the processing

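The number of calls, 507, became 1121 with DESeq2 and 776 after thinning cells to 20000 counts, which left 9615 genes to test, and it ranged from 21 to 344 when 1 mouse was left out. In the other alternatives it lay between 364 and 739, and with the mouse as a block it was 424, of which 366 were among the 507. No called gene with a value changed direction in any of the 16 alternatives. Of 91 named genes that were called, 70 remained called without mouse 1, 26 without mouse 2 and 16 without mouse 3, and 8 were called in every alternative. Outside these, 1209 of 1246 values of named genes stayed on the same side of the threshold with the same direction. The block changed the calls of 6 named genes, among them those with a blocked p in the report, and no other named call. Nos1, which was not called, had a log2 change of 0.39 after thinning, 0.043 with all labelled cells, 0.040 without plate 12, and -1.98 to 0.73 when 1 mouse was left out, the last value without mouse 3 and 0.14 without mouse 2. With 3 mice a side, and sums of few cells within classes, small changes may be missed, and depth limits genes of few counts.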
